A study of Mus musculus with 16 samples.

Results

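Golgi glycosyltransferases are the enzymes that build the sugar chains of secreted and membrane proteins and of glycolipids. Here they were taken as the rows of a gene table from mouse mammary gland whose symbol begins with Galnt, Galntl, Fut, Mgat, B3gnt, B3galt, B4galt, St3gal, St6gal, St6galnac, St8sia or Gcnt followed by a number. B4galt1, which pairs with alpha-lactalbumin to make lactose, was left out. The rule uses names alone and found 82 of 24187 rows, in 11 families. A mean of at least 1 FPKM (reads per kilobase of gene, scaled to library size) over 7 libraries was reached by 49 of them, out of 13392 genes of the table that passed the same minimum and were tested.

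The series examined wild-type C57BL/6 mice bought from Charles River and Socs2-Δs mice, a line made on that strain by CRISPR/Cas9 genome editing, and its title names the transcription factor STAT5. Socs2 encodes an inhibitor of cytokine signalling through the JAK kinases and STAT5. Poly(A) RNA of whole mammary gland was sequenced at day 13 of pregnancy in 4 wild-type (WT) and 3 Socs2-Δs (Mut) libraries. The mice differ in source as well as in genotype, so these cannot be told apart. The titles decide the groups here, because a genotype field that calls the 3 Mut libraries wild type conflicts with them. Whether replicates were separate animals is not in the labels, and p-values therefore cover only the spread between libraries, which may be technical.

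Sugar chains are built in steps. N-glycans are trimmed in the Golgi and then branched by the Mgat enzymes, while mucin-type O-glycans are started by the Galnt enzymes on serine or threonine. Both are extended with galactose and N-acetylglucosamine by the B4galt, B3galt and B3gnt families and branched by Gcnt enzymes, and are then capped with sialic acid (St3gal, St6gal, St6galnac, St8sia) or fucose (Fut). Several of the same families build glycolipids. In mammary gland these pathways decorate milk proteins and the membrane that surrounds milk fat globules.

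The reads of the listed genes, recovered from the steps between the values, came to 21.3 to 24.5 M (mega) per library. WT replicates 3 and 4 stood apart from the other 5: their scores on the first principal component, which took 61.6% of the variance, were 57.1 and 77.9 against -37.7 to -15.8. Neat1, a nuclear noncoding RNA, was at 11.4 and 14.8 FPKM in them and at 442 to 586 in the others. Transcripts of salivary gland summed to 624 and 305 FPKM in WT replicates 3 and 4 and to 61.0 to 104 in the others, and those of liver to 580 and 2532 FPKM against 50.4 to 346, with at most 4 of the 16 salivary and 1 of the 16 liver markers at 0 in a library. Log2 differences below are against all 4 WT libraries unless stated otherwise, and the value against WT replicates 1 and 2 alone is given beside those of single glycosyltransferases that it moved by over 1.5 times. Socs2 itself was at 25.6, 22.1, 24.8 and 16.1 FPKM in WT replicates 1 to 4 and at 17.1, 13.9 and 15.99 in the mutants; the groups overlapped and the difference of -0.46 on the log2(FPKM + 1) scale was not called (adjusted p = 0.267).

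Marker genes of several cell types also differed in level between the groups, although none of them was called with 7 libraries (limma). An unadjusted p under 0.05 was reached by 12 of 12 alveolar, 5 of 13 luminal and 8 of 11 adipocyte markers (limma). The counts were 7 of 10 for fibroblast, 9 of 10 for macrophage, 1 of 10 for basal and 2 of 9 for endothelial markers. Such a p was found for 18.1% of all tested genes. Against WT replicates 1 and 2 alone, 8 of the 12 alveolar markers were called higher and 2 of the 11 adipocyte markers lower. Of all tested genes, 1.26% were called higher and 0.680% lower in that comparison. All 12 markers of secretory alveolar cells, most of them milk protein genes, had higher values in the mutants (median log2 difference 2.50, summed FPKM 4088 to 46038 in WT and 80954 to 107811 in Mut), as did all 13 tested luminal markers (median 0.63). All 11 adipocyte markers were lower (median -1.42, summed FPKM 11720 to 24744 in WT and 3848 to 7073 in Mut), as were 9 of 10 fibroblast markers (median -0.95, 2496 to 3282 against 1529 to 2145) and 9 of 10 macrophage markers (median -0.82). The median was 0.00 for basal and -0.16 for endothelial markers, and no marker of these 7 cell types was at 0 in any library. In whole tissue, fewer cells of a type and less RNA per cell cannot be told apart, and the part of these markers' cells in the differences below was not tested.

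The sequences just upstream of the transcription start are shown for Fut4 and St6gal1, the 2 glycosyltransferase genes called higher in the mutants in 1 of the comparisons below. They are the last 100 bases before the start in RefSeq (GRCm38.p6, 5′ to 3′ on the strand of the gene). Fut4 has 1 start in that table, on the minus strand, and its 100 bases lie at chr9:14752123-14752222. St6gal1 has 3 starts on the plus strand, and the 100 bases before them lie at chr16:23224640-23224739, chr16:23225921-23226020 and chr16:23290370-23290469, in that order.
Fut4: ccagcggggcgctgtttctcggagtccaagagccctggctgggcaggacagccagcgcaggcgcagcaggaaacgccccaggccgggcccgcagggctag
St6gal1 start 1: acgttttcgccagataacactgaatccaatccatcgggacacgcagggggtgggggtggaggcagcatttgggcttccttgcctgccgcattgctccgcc
St6gal1 start 2: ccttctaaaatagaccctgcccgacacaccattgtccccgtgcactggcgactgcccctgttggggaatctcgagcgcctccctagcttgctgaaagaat
St6gal1 start 3: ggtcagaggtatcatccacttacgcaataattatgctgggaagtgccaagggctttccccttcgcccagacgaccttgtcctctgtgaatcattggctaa

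STAT5 is known to bind elements of the form TTCNNNGAA, which read the same in form on both strands. The letters were searched from 250 bases before to 50 bases after each start. The table held a promoter for 60 of the 82 genes, and 5 of the 60 (8.33%) had a match, against 9.55% of the 27025 genes in the table. Of the tested glycosyltransferases 2 of 35 (5.71%) had one, against 8.27% of the 10471 tested genes with a promoter. Those were Mgat2 and Gcnt2. Under the minimum, Gcnt4 (mean 0.749 FPKM), B3galt5 (0.203) and Galntl6 (0.00488) also had matches. Gcnt4 had a further match after its start, which is not shown. Mgat2, Gcnt2 and the first match of Gcnt4 are shown with the matching letters in capitals. All are on the plus strand, at chr12:69184089-69184149, chr13:40886508-40886565 and chr13:96924148-96924208. No match lay in these windows of Fut4 or of the 3 starts of St6gal1, which says nothing on elements elsewhere.
Mgat2: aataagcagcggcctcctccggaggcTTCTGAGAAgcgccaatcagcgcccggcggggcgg
Gcnt2: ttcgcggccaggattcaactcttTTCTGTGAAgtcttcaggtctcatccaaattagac
Gcnt4: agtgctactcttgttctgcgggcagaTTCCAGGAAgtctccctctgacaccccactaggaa

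The repertoire of the gland was broad but uneven. The highest mean over the 7 libraries was 32.9 FPKM, for Galnt1, which starts mucin-type O-glycans, followed by 4 genes of N-glycan synthesis: Mgat4b at 29.0, Mgat1 at 25.6, Mgat2 at 23.2 and St6gal1 at 22.4 FPKM. In some families 1 gene held most of the summed FPKM. St6gal1 held 99.9% of the St6gal family, St8sia4, a polysialic acid synthase, 69.0% of the St8sia family, and B3galt2, a galactosyltransferase of lactosamine-type chains, 59.0% of the B3galt family. The St3gal and Galnt families were spread over more genes, with 29.8% in St3gal4 and 26.8% in Galnt1. Of the 33 genes under the minimum, 13 had a mean under 0.1 FPKM and 2 were listed at 0 in all libraries, Mgat4d and St8sia3os. The latter is a transcript of the opposite strand and encodes no enzyme of the family. The row named B3gnt1 has the RefSeq symbol B4gat1, whose product acts on dystroglycan, and is given as B3gnt1 here.

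**Figure D1:**
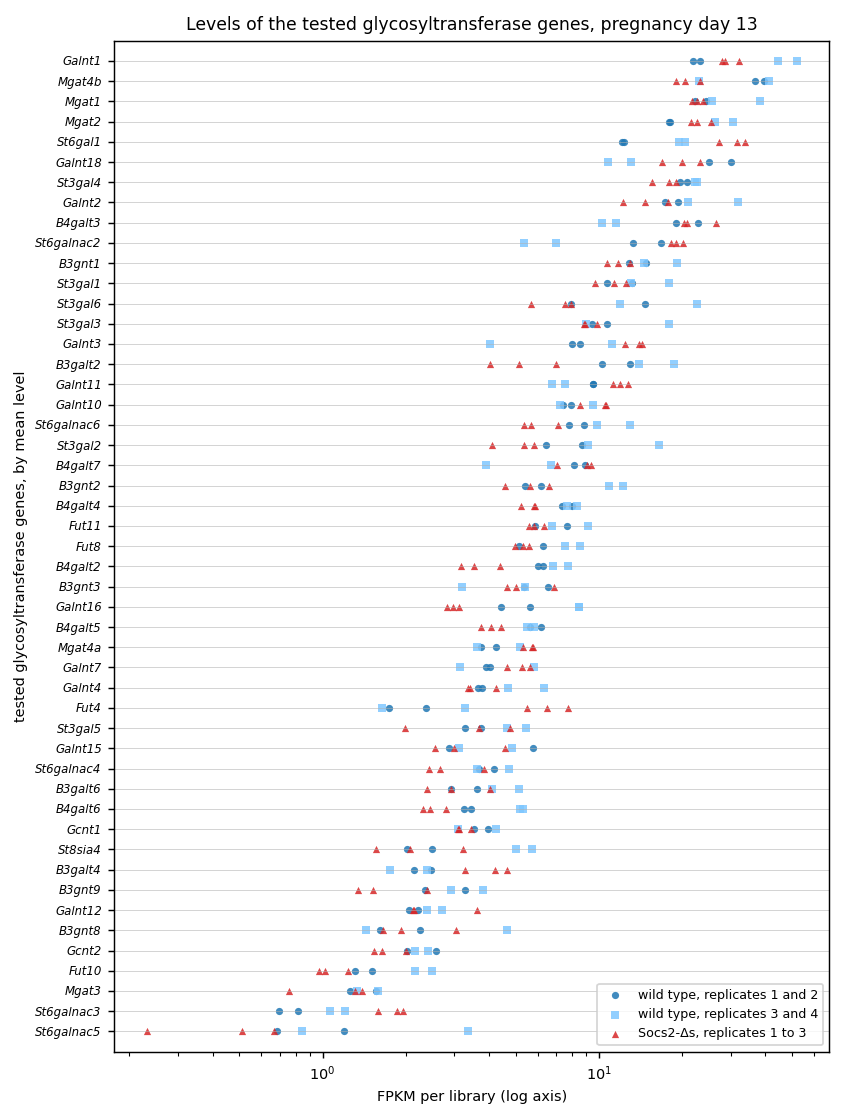
Level of each of the 49 tested glycosyltransferase genes in each of the 7 libraries, in FPKM on a log axis, ordered by the mean over the libraries. Dark circles are WT replicates 1 and 2, light squares WT replicates 3 and 4, and triangles the 3 Socs2-Δs libraries; the light squares often lie to one side of the dark circles, as for Galnt1 and Galnt18, and for Fut4 and St6gal1 the triangles lie to the right of all WT libraries.

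Against all 4 WT libraries, no glycosyltransferase was called. The test was limma on log2(FPKM + 1) with Benjamini-Hochberg adjustment over all 13392 genes, and a call needed an adjusted p under 0.05; 6 genes of the table (0.0448%) met that. At an unadjusted p under 0.05 there were 19 of 49 glycosyltransferases (38.8%), 8 higher and 11 lower in the mutants, where 18.1% of all tested genes had such a p. More members were lower than higher: 33 of 49 against 16, so 32.7% were higher compared with 49.6% of all tested genes. The median log2 difference was -0.26, and -0.00 over all tested genes. The values of the 2 groups did not overlap for 8 members with higher mutant values (16.3%, where 12.5% of all tested genes were such) and for 12 with lower ones (24.5%, where 10.0% were). Of these, St6galnac3 and St6galnac5 passed the minimum only through the group where they were higher, so the minimum itself favoured a difference for them. The FPKM of all 82 genes together summed to 441, 431, 480 and 543 in WT replicates 1 to 4 and to 421, 437 and 421 in the mutants, so WT replicate 2 lay within the range of the mutants. Over all genes of the table the sums were 421374, 492933, 771273 and 636044 in WT and 487096, 550556 and 618412 in Mut. Summed FPKM given here were not scaled to these totals.

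Against WT replicates 1 and 2 alone, 3 glycosyltransferases were called. Fut4 and St6gal1 rose in the mutants, which is 4.08% of the 49 where 1.26% of all tested genes were called higher, and Mgat4b fell, which is 2.04% where 0.680% were called lower. Of the 49, 15 were higher, with a median log2 difference of -0.10 compared with 0.03 over all tested genes, 55.05% of which were higher. The 2 comparisons share the 3 mutant libraries and 2 WT libraries, and the direction differed between them for 5 members. Leaving out any single library of these 5 ended all 3 calls, as did testing without a minimum.

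**Figure D2:**
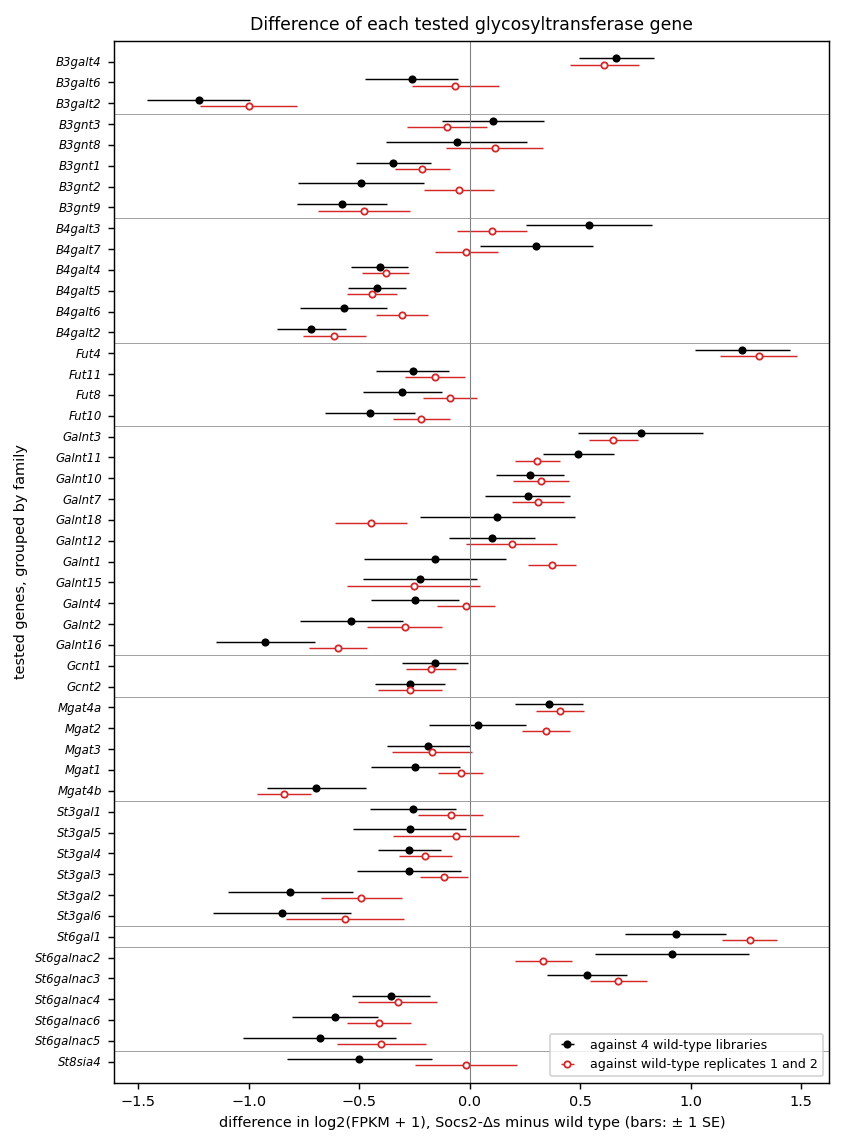
Difference of each tested gene in log2(FPKM + 1), Socs2-Δs minus wild type, with bars of 1 standard error, grouped by family. Filled points use all 4 WT libraries and open points WT replicates 1 and 2; most filled points lie left of 0 (33 of 49), and Fut4 and St6gal1 have the largest positive values in both.

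Fut4, the α1,3-fucosyltransferase that makes the Lewis x structure, had the largest difference upwards. It was at 1.73, 2.37, 3.27 and 1.65 FPKM in WT replicates 1 to 4 and at 5.48, 6.48 and 7.74 in Mut replicates 1 to 3, that is 2.26 ± 0.749 (SD, n = 4) against 6.57 ± 1.14 (SD, n = 3). Every mutant library lay above every WT library, and the difference of 1.23 ± 0.21 (SE) on the log2(FPKM + 1) scale was not called with 7 libraries (limma, adjusted p = 0.110). Against WT replicates 1 and 2 it was 1.31 ± 0.17 and was called (adjusted p = 0.0386), with adjusted p of 0.0789 to 0.265 when single libraries were left out. The values rest on 123 to 613 reads per library. Fut4 was the single tested gene for terminal fucose: Fut1, Fut2 and Fut9 had means of 0.110, 0.130 and 0.168 FPKM. Fut7, which completes the sialyl Lewis x ligand of selectins, had a mean of 0.716 FPKM.

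St6gal1, which caps N-glycans with α2,6-linked sialic acid, was at 12.1, 12.3, 20.6 and 19.4 FPKM in WT replicates 1 to 4 and at 27.1, 31.5 and 33.9 in the mutants. These are 16.1 ± 4.54 (SD, n = 4) and 30.9 ± 3.45 FPKM (SD, n = 3), 1.92-fold, without overlap. Both WT libraries that stood apart, replicates 3 and 4, lay between the other WT libraries and the mutants. The log2 difference was 0.93 ± 0.23 (SE, adjusted p = 0.158) with 7 libraries and 1.27 ± 0.12 (adjusted p = 0.0233) against WT replicates 1 and 2, where the fold was 2.53. Leaving out single libraries of the latter gave adjusted p of 0.0584 to 0.208. Its paralog St6gal2 was at most at 0.0750 FPKM.

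Mgat4b, which adds a further N-acetylglucosamine branch to N-glycans, was lower in the mutants. It was at 39.5, 36.6, 23.1 and 41.1 FPKM in WT and at 19.0, 20.4 and 23.2 in Mut, so WT replicate 3 lay within the range of the mutants and the other 3 WT libraries above it. The log2 difference was -0.69 ± 0.22 (SE, limma, adjusted p = 0.206) with all libraries and -0.84 ± 0.12 (adjusted p = 0.0408) without WT replicates 3 and 4, where leaving out single libraries gave adjusted p of 0.0670 to 0.277. Mgat4a makes the same branch. It was at 3.75, 4.23, 5.17 and 3.61 FPKM in WT and at 5.73, 5.79 and 5.32 in Mut, without overlap and in the other direction (0.36 ± 0.15, adjusted p = 0.274). The ratio of Mgat4b to Mgat4a was thus 10.5, 8.66, 4.46 and 11.4 in WT and 3.31, 3.53 and 4.37 in Mut, with WT replicate 3 just above the highest mutant.

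**Figure D3:**
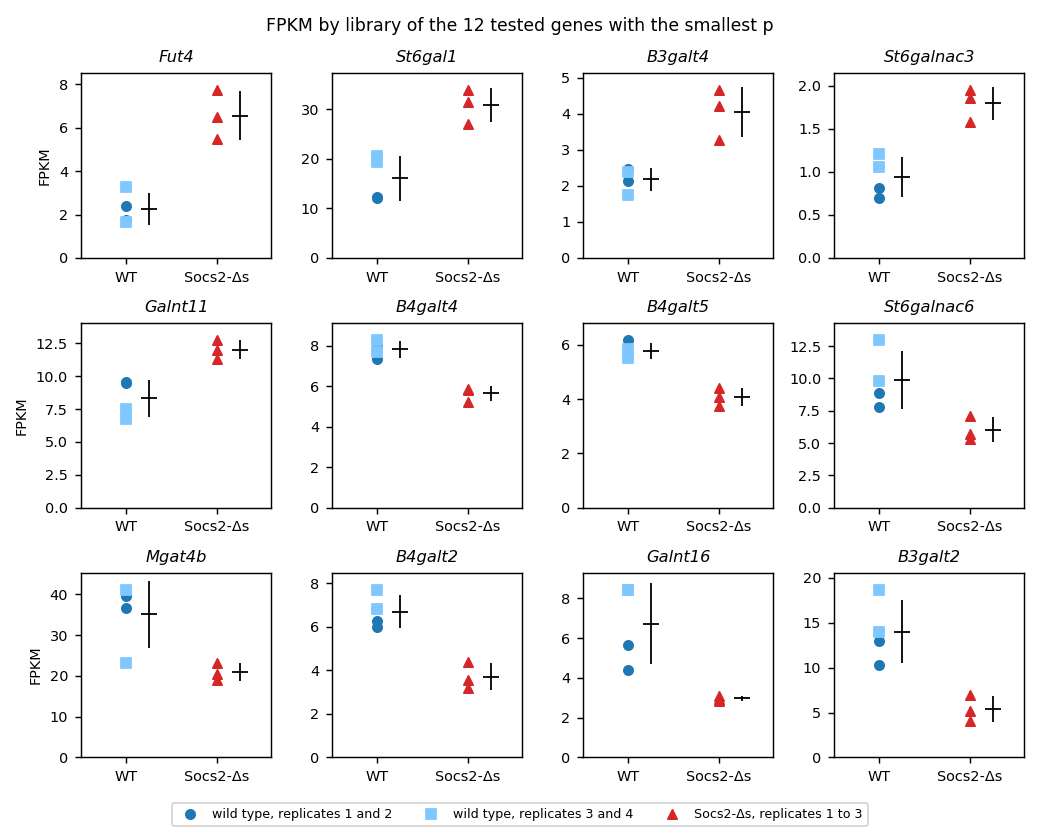
FPKM in each library of the 12 tested glycosyltransferase genes with the smallest p with 7 libraries, with the mean and SD of each group as a bar beside the points; circles and squares are WT and triangles Socs2-Δs. The panels run from the largest positive to the largest negative difference. The groups overlap for Mgat4b, where the WT square at 23.1 lies within the mutants, and are separate for the other 11. Choosing genes by smallest p favours separate groups, and St6galnac3 passed the minimum through the mutants only. Of all tested genes, 12.5% were separate with higher mutant values and 10.0% with lower ones.

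For the other steps of N-glycan branching the 2 groups overlapped. Mgat1, which adds the first branch, was at 22.3 to 38.3 FPKM in WT and 21.6 to 23.8 in Mut, and Mgat2, which adds the second, at 17.9 to 30.5 against 21.6 to 25.4. Their log2 differences were -0.25 ± 0.20 and 0.03 ± 0.22 (SE). For Mgat1 the difference from WT replicates 1 and 2 was -0.04 ± 0.10, and for Mgat2 the mutants were 0.35 ± 0.11 above WT replicates 1 and 2 (adjusted p = 0.165). Mgat3, the bisecting enzyme, had a mean of 1.31 FPKM and a difference of -0.19 ± 0.19, and Fut8, which adds the core fucose, one of -0.30 ± 0.18, or -0.09 ± 0.12 against WT replicates 1 and 2. Of these 6 tested genes with the Mgat4 pair, 2 were higher and 4 lower in the mutants. Their summed FPKM with the low genes of this step was 92.9, 90.5, 93.9 and 120.5 in WT and 77.5, 79.4 and 82.9 in Mut, without overlap. That sum includes Mgat4b, the highest of these genes and the one with the largest fall, so it does not show a lower level of the whole step.

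Among the enzymes that start mucin-type O-glycans, 11 of 18 were tested, 6 higher and 5 lower, with a median of 0.10 (0.19 against WT replicates 1 and 2). Galnt3 was at 7.99, 8.56, 11.1 and 4.05 FPKM in WT and at 14.0, 12.4 and 14.3 in Mut, and Galnt11 at 9.52, 9.50, 7.52 and 6.77 against 11.96, 12.8 and 11.3. Both were separate between the groups, with log2 differences of 0.77 ± 0.28 (SE, adjusted p = 0.234) and 0.49 ± 0.16 (adjusted p = 0.210). That of Galnt11 against WT replicates 1 and 2 was 0.31 ± 0.10 (limma, adjusted p = 0.179). Of these 11 genes, 2 were separate with higher mutant values and 1 with lower ones, where 12.5% and 10.0% of all tested genes were. Galnt16 was lower in every mutant library: 5.64, 4.42, 8.44 and 8.44 FPKM in WT against 2.96, 3.12 and 2.82, a difference of -0.92 ± 0.22 (adjusted p = 0.158), or -0.60 ± 0.13 against WT replicates 1 and 2 (adjusted p = 0.0850). Galnt3 thus stood at 0.479 to 1.94 times Galnt16 in the WT libraries and at 3.98 to 5.06 times in the mutants, a ratio chosen after the values were seen. The direction of Galnt1 and Galnt18 turned with the WT libraries used. Galnt1 was at 21.9, 23.3, 52.1 and 44.5 FPKM in WT and at 28.6, 32.1 and 28.0 in Mut, which gave -0.16 ± 0.32 with all WT libraries and 0.37 ± 0.11 with replicates 1 and 2. Galnt18 was at 24.97, 30.1, 13.1 and 10.8 FPKM in WT and at 23.1, 16.9 and 20.1 in Mut, which gave 0.12 ± 0.35 and -0.45 ± 0.16.

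The enzymes that extend and cap O-glycans included 5 tested genes. St6galnac2, which puts α2,6-linked sialic acid on the first sugar of the chain, was at 16.8, 13.3, 6.998 and 5.38 FPKM in WT and at 20.1, 18.3 and 18.9 in Mut, without overlap. The log2 difference of 0.91 ± 0.35 (SE, limma, adjusted p = 0.244) with all WT libraries was 0.33 ± 0.13 (adjusted p = 0.233) against WT replicates 1 and 2, where the fold was 1.27 and not 1.80. Gcnt1, which makes the core 2 branch, was at 3.09 to 4.25 FPKM in WT and 3.08 to 3.44 in Mut. B3gnt3, which extends core 1, St3gal1, which caps it, and St6galnac4 differed by 0.11, -0.26 and -0.36 with overlapping groups. B3gnt3 was at -0.10 and St3gal1 at -0.09 against WT replicates 1 and 2. Gcnt4, a second core 2 enzyme under the minimum and so not tested, was at 0.616 to 1.20 FPKM in WT and 0.397 to 0.500 in Mut.

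Lactosamine chains are repeats of galactose and N-acetylglucosamine. Of the 7 tested genes placed here, 6 were lower in the mutants with 7 libraries and 5 against WT replicates 1 and 2 alone. Their median was -0.41 with 7 libraries and -0.27 with 5. B3galt2 had the largest difference downwards of all 49: 13.0, 10.3, 14.0 and 18.7 FPKM in WT and 5.12, 6.99 and 4.05 in Mut, that is 14.0 ± 3.51 (SD, n = 4) against 5.39 ± 1.49 (SD, n = 3). The groups did not overlap, at -1.23 ± 0.23 (SE, limma, adjusted p = 0.117) with 7 libraries and -0.9998 ± 0.22 (adjusted p = 0.0840) with 5. B4galt2 was at 6.00, 6.29, 6.81 and 7.72 FPKM in WT and at 4.38, 3.17 and 3.54 in Mut (-0.72 ± 0.16, adjusted p = 0.135), and B4galt4 at 7.33, 7.99, 8.30 and 7.68 against 5.83, 5.24 and 5.89 (-0.41 ± 0.13, adjusted p = 0.198). Both are galactosyltransferases related to the lactose synthase subunit, and for both WT replicates 3 and 4 lay close to the other WT libraries. B4galt3, the highest of that family, was instead at 19.0, 22.9, 11.5 and 10.2 FPKM in WT and at 20.3, 20.8 and 26.5 in Mut; the difference was 0.54 ± 0.29 with all WT libraries and 0.10 ± 0.16 without replicates 3 and 4. Gcnt2, the I-branching enzyme, was at 2.02 to 2.57 FPKM in WT and 1.53 to 1.999 in Mut, without overlap (-0.27 ± 0.16), and B3gnt2, which extends the chains, was at -0.49 ± 0.28 with all WT libraries and -0.05 ± 0.16 with replicates 1 and 2.

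Of the 8 tested genes placed with glycolipids, 2 were higher and 6 lower, with a median of -0.49. The groups were separate for the 2 higher genes and for 5 of the lower ones, where 12.5% and 10.0% of all tested genes were separate in these directions, and St6galnac3 and St6galnac5 are among these 7. B4galt5 and B4galt6 both make lactosylceramide, the entry to gangliosides. B4galt5 was at 5.62, 6.19, 5.52 and 5.83 FPKM in WT and at 4.08, 4.41 and 3.75 in Mut (-0.42 ± 0.13 SE, limma, adjusted p = 0.198), a tight set of values with SDs of 0.297 and 0.328. B4galt6 was at 3.44, 3.25, 5.20 and 5.32 FPKM in WT and at 2.80, 2.30 and 2.45 in Mut (-0.57 ± 0.20, adjusted p = 0.223), with a difference of -0.31 ± 0.12 from WT replicates 1 and 2. St3gal5, the GM3 synthase that acts next, overlapped between groups at 3.27 to 5.46 against 1.98 to 4.77 FPKM (-0.27 ± 0.26, or -0.06 ± 0.28 against WT replicates 1 and 2). B3galt4, which makes the later ganglioside GM1, was higher in every mutant: 2.46, 2.14, 1.76 and 2.39 FPKM in WT and 4.22, 4.67 and 3.29 in Mut (0.66 ± 0.17, adjusted p = 0.161).

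The 3 St6galnac enzymes of gangliosides did not share a direction. St6galnac6 was at 8.86, 7.78, 9.81 and 13.0 FPKM in WT and at 7.11, 5.68 and 5.34 in Mut (-0.61 ± 0.19 SE, limma, adjusted p = 0.200). St6galnac3 was at 0.697, 0.814, 1.21 and 1.06 FPKM in WT and at 1.58, 1.95 and 1.86 in Mut (0.53 ± 0.18, adjusted p = 0.219), with a mean of 1.31 that lay just above the minimum. St6galnac5, at 1.20, 0.687, 0.846 and 3.36 FPKM in WT and at 0.513, 0.667 and 0.232 in Mut, had the fewest reads of a tested gene, 10 in Mut replicate 3; its difference was -0.68 ± 0.35, and -0.40 ± 0.20 against WT replicates 1 and 2. St6galnac6 was separate between the groups. So were the other 2, but St6galnac3 had a WT mean of 0.945 FPKM and St6galnac5 a Mut mean of 0.470, so each passed the minimum through 1 group only. For St6galnac5 the nearest libraries of the 2 groups had 33 and 31 reads. Adipocyte and fibroblast markers were lower and secretory markers higher in the same libraries, and their part in these differences was not tested.

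All 6 α2,3-sialyltransferases of the St3gal family were lower in the mutants in both comparisons, with differences of -0.85 to -0.26 and a median of -0.27 with 7 libraries, and of -0.57 to -0.06 with 5. None was called. St3gal4, the highest of them, was at 20.8, 19.6, 22.2 and 22.7 FPKM in WT and at 15.6, 19.0 and 17.95 in Mut (-0.27 ± 0.14 SE). St3gal2 was at 8.70, 6.45, 9.11 and 16.5 against 5.82, 5.38 and 4.09 (-0.81 ± 0.28), and St3gal6 at 7.91, 14.7, 22.7 and 11.9 against 5.69, 7.51 and 7.94 (-0.85 ± 0.31), where the groups overlapped. Both were smaller against WT replicates 1 and 2, at -0.49 ± 0.18 and -0.57 ± 0.27. The family summed to 65.1, 64.1, 81.5 and 91.6 FPKM in WT and to 49.2, 57.9 and 53.4 in Mut, while the St6gal family summed to 12.1, 12.3, 20.6 and 19.4 and to 27.2, 31.5 and 33.9.

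Set side by side within each library, the St6gal sum was 0.186, 0.192, 0.252 and 0.212 of the St3gal sum in WT and 0.553, 0.544 and 0.635 of it in Mut. The ratio averaged 0.211 ± 0.0301 (SD, n = 4) and 0.577 ± 0.0504 (SD, n = 3), and WT replicates 3 and 4 lay near the other WT libraries on it although both sums were higher there. It was chosen after the values were seen, compares RNA and not linkages, and was not tested. St8sia4 was at 2.02 to 5.72 FPKM in WT and 1.56 to 3.23 in Mut; its difference was -0.50 ± 0.33 with 7 libraries and -0.02 ± 0.23 with 5.

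**Figure D4:**
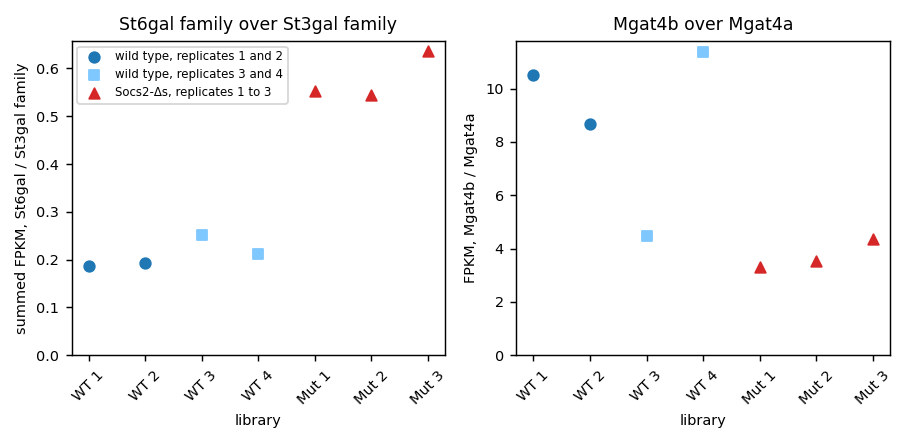
Summed FPKM of the St6gal family over that of the St3gal family (left) and FPKM of Mgat4b over Mgat4a (right) in each library; both axes start at 0. On the left the mutants (0.544 to 0.635) lie above all WT libraries (0.186 to 0.252), and on the right WT replicate 3 (4.46) lies close to the mutants (3.31 to 4.37).

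A few enzymes act elsewhere. B4galt7 and B3galt6, which add the galactoses of the linker that joins glycosaminoglycans to proteoglycans, had differences of 0.30 ± 0.26 and -0.26 ± 0.21 (SE), and B3gnt1 one of -0.35 ± 0.17 at 12.8 to 19.2 FPKM in WT and 10.7 to 12.9 in Mut. Without WT replicates 3 and 4 these were -0.02 ± 0.14, -0.07 ± 0.20 and -0.21 ± 0.12. Fut10 (-0.45 ± 0.20) was separate between the groups, at 1.32 to 2.49 against 0.971 to 1.23 FPKM, and Fut11 (-0.26 ± 0.17), the highest of its family, was not; both were smaller against WT replicates 1 and 2 (-0.22 ± 0.13 and -0.16 ± 0.14). Galnt2, Galnt4, Galnt7, Galnt10, Galnt12 and Galnt15 had differences of -0.54 to 0.27, St3gal3 one of -0.27, and B3gnt8 and B3gnt9 ones of -0.06 and -0.58, each with overlapping groups. Without WT replicates 3 and 4, Galnt2 was at -0.30, Galnt4 at -0.02, Galnt12 at 0.19, St3gal3 at -0.12 and B3gnt8 at 0.11. By level, Fut10, Mgat3, St6galnac3 and St6galnac5 lay just inside the minimum at means of 1.53, 1.31, 1.31 and 1.07 FPKM. B3gnt5, Fut7, Galnt6, Gcnt4, Mgat5 and St8sia6 lay just outside it at 0.797, 0.716, 0.925, 0.749, 0.866 and 0.722.

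A set of the low genes followed 2 libraries and not genotype. B3gnt5, which starts lacto-series glycolipids, was at 2.87 FPKM in WT replicate 4 and 2.15 in Mut replicate 2 and at 0.0760 to 0.173 in the other 5. Galnt6 was at 1.84 and 2.78 FPKM in these 2 libraries and at 0.269 to 0.491 in the others, and St8sia1, the GD3 synthase, at 0.714 and 0.478 against 0.0142 to 0.0463. Fut7 was at 2.14 and 0.959 against 0.166 to 0.703 FPKM. Tested genes could also be highest in these 2 libraries. B3gnt8 was at 4.65 and 3.04 against 1.43 to 2.25 FPKM, and Galnt12 at 2.70 and 3.63 against 2.05 to 2.39. The same 2 libraries had the highest summed T cell markers (150 and 114 FPKM against 9.33 to 21.8) and B and plasma cell markers (321 and 222 against 18.8 to 117), with Cd79a of the B cell receptor at 90.4 and 58.7 against 0.611 to 1.098. The part of these cells in the values was not tested.

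**Figure D5:**
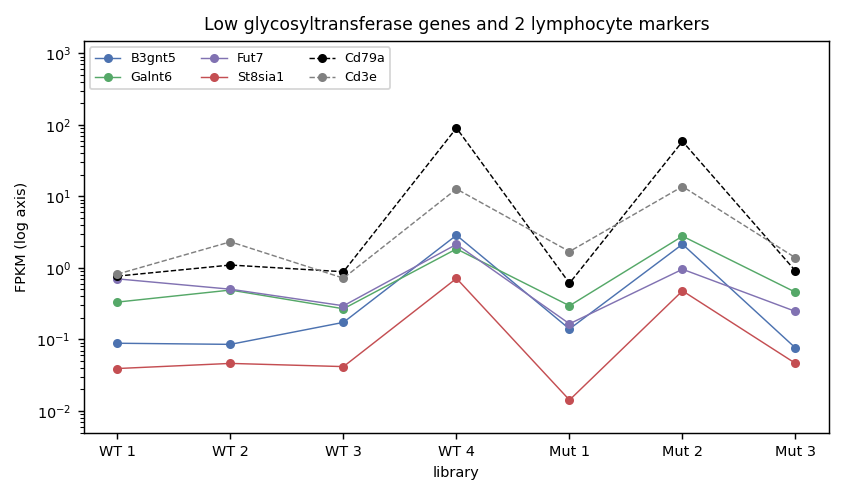
FPKM on a log axis of 4 low glycosyltransferase genes (solid lines) and of the lymphocyte markers Cd79a and Cd3e (dashed lines) in each library; the lines only join the points of 1 gene. All 6 have their highest values in WT replicate 4 and Mut replicate 2.

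The other genes of the glycosylation pathway were read in 7 lists chosen by function, and none of their genes was called with 7 libraries (limma). An unadjusted p under 0.05 was reached by 8 of 27 genes of nucleotide sugar synthesis, 5 of 39 other glycosyltransferases, 4 of 25 genes of Golgi tethering, 2 of 13 transporters, 1 of 23 genes of N-glycan assembly, 1 of 7 mannosidases and 0 of 12 genes of the oligosaccharyltransferase, where 18.1% of all tested genes had such a p. Of the 25 tested genes of the conserved oligomeric Golgi complex and Golgi matrix, which tether vesicles and keep the enzymes in place, 23 were higher with 7 libraries (median 0.25, and -0.00 over all tested genes). Against WT replicates 1 and 2 there were also 23, but Golph3l changed from -0.06 to 0.27 and Cog1 from 0.35 to -0.03. The 3 with the smallest p were Golga5 (0.44), Golga4 (0.75) and Golga2 (0.49), with adjusted p of 0.228 to 0.249; Golga4 and Golga2 were at 0.31 and 0.23 against WT replicates 1 and 2. Of the 13 transporters that bring nucleotide sugars into the Golgi, 11 were higher (median 0.13, or 0.28 without WT replicates 3 and 4). Slc35c1, the GDP-fucose transporter, was at 10.2, 11.6, 10.4 and 9.09 FPKM in WT and at 16.4, 15.4 and 16.9 in Mut, without overlap (0.61 ± 0.14 SE, limma, adjusted p = 0.144). Slc35c2 and Slc35a2 followed at 0.43 and 0.35. The groups were separate for 3 higher and 1 lower of the 13 transporters, where 12.5% and 10.0% of all tested genes were.

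Of the 27 genes of nucleotide sugar synthesis, 16 were higher and 11 lower (median 0.07, or 0.15 without WT replicates 3 and 4). Gne, which commits UDP-N-acetylglucosamine to sialic acid, was at 9.65, 9.84, 8.29 and 7.08 FPKM in WT and at 15.3, 13.8 and 14.5 in Mut (0.69 ± 0.15 SE, limma, adjusted p = 0.141). Gne was 1 of 4 genes of the 27 with every mutant library above every WT library, and 4 had every one below. Of all tested genes, 12.5% and 10.0% were such. Gfpt2, of the hexosamine pathway, was at 6.79 to 8.20 FPKM in WT and 3.83 to 4.35 in Mut (-0.70 ± 0.14, adjusted p = 0.121), and Ugdh, which makes UDP-glucuronic acid, was at -0.80 (adjusted p = 0.167), or -0.51 against WT replicates 1 and 2.

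Among the 7 Golgi mannosidases, which trim N-glycans ahead of the Mgat enzymes, 2 were higher and 5 lower (median -0.30, or -0.02 without WT replicates 3 and 4). Man1c1 was at 5.79, 4.76, 5.31 and 6.38 FPKM in WT and at 10.4, 10.7 and 9.05 in Mut; it rose against WT replicates 1 and 2 (0.82, limma, adjusted p = 0.0478) and was not called with 7 libraries (0.75 ± 0.15 SE, adjusted p = 0.121). Of 39 tested glycosyltransferases outside the name rule, 18 were higher and 21 lower (median -0.04). Extl1, of heparan sulfate synthesis, was called against WT replicates 1 and 2 (0.93, adjusted p = 0.0389), at 3.46 to 12.8 FPKM in WT and 21.4 to 25.8 in Mut. Man1c1 and Extl1 were the only calls of the 7 lists in that comparison, 1 of 7 mannosidases and 1 of 39 other glycosyltransferases. Of all tested genes, 1.26% were called higher there. Neither call was retested with single libraries left out. The 23 genes that assemble the N-glycan precursor (16 higher, 7 lower, median 0.02) and the 12 of the oligosaccharyltransferase (4 higher, 8 lower, median -0.10) were led by Dolk (-0.78, adjusted p = 0.226), Alg12 (0.44) and Dpm1 (-0.34), and by Tusc3 (-0.59, adjusted p = 0.292), Ost4 (-0.55) and Stt3b (-0.35). Without WT replicates 3 and 4 these 6 were at -0.47, 0.14, -0.02, -0.18, -0.04 and -0.05 in that order, and the medians of the lists at 0.13 and 0.13, so that of the oligosaccharyltransferase changed sign.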

How the data were processed

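The authors deposited FPKM values per gene, in a table of 24187 rows with symbols and Entrez IDs. Tools named in the submitters' processing notes, with no version, are STAR, Bowtie2, CASAVA and DESeq2, and the build is mm9. Annotation, filters and the use of strand were not given in the sources. Of the series' 16 samples, 9 were ChIP-seq or DNase-seq and were not used here.

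Testing was limited to genes that averaged 1 FPKM or more across all 7 libraries and used limma 3.58.1 in R 4.3.3 (linear model, empirical Bayes with trend, no covariate, two-sided) on log2(FPKM + 1). This scale shrinks differences of genes with low values. The adjustment was Benjamini and Hochberg over all 13392 genes, with a threshold of 0.05. Whole reads, within 0.02 of a read, were recovered for 21044 of 21044 rows above 0; 43 of the 49 tested genes had at least 100 reads in every library. A row above 0 in only 1 library is always solved, as 1 read. Genes that overlap or share sequence may share reads.

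The members and lists were chosen with earlier results of these data known, and so was the comparison without WT replicates 3 and 4. Genes named are those called in either comparison, the 12 of smallest p, the highest of each family, those near the minimum, and, per list, those called or the 3 of smallest p; others that stand with their values, such as the Mgat4 pair, were chosen after their values were seen. Same-numbered libraries deviated from their group means with correlations of 0.350, -0.104 and 0.283. For Mut replicates 1 and 3 these were the highest with any WT library, while Mut replicate 2 matched WT replicate 4 best (0.338). The numbers were not taken to pair the libraries, and a replicate block was run as an alternative. Promoter sequences and symbols came from RefSeq tables of GRCm38.p6, matched by symbol or Entrez ID, and no coordinates were carried over from mm9.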

Additional observations from a re-analysis of the deposited data

Results flagged for a closer look

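In 2 genes the value of WT replicate 4 lay far from those of the other WT libraries, among 55 genes whose 4 WT values were checked. B3gnt5 was at 2.87 FPKM there and at 0.0854 to 0.173 in the other WT libraries, and the mutants spanned 0.0760 to 2.15. Galnt6 was at 1.84 FPKM there and at 0.269 to 0.491 in the other WT libraries, and the mutants spanned 0.296 to 2.78. Both genes were under the minimum for testing. The mutant values of 2.15 and 2.78 were those of Mut replicate 2. The rule flags about 1 in 20 groups of 4 by chance if values are normally distributed, which low FPKM values need not be.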

How the results depend on the processing

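With 7 libraries, no glycosyltransferase was called under any alternative run (pseudocount 0.1, no minimum, median-of-ratios scaling, quantile normalization, a term for WT replicates 3 and 4, the replicate block, each library left out). The median log2 difference of -0.26 was -0.063 without a minimum and -0.10 with the term for WT replicates 3 and 4, and ran from -0.33 to -0.25 with single libraries left out, except -0.16 without WT replicate 4. Against WT replicates 1 and 2, the 3 calls became 0 without a minimum and 0 with any single library left out; they became 4, with Galnt3 added, under median-of-ratios scaling and under a minimum over the 5 libraries, the latter chosen after the data were seen. The median of -0.10 ran from -0.20 (without WT replicate 2) to -0.043 with single libraries left out. With the replicate block, which had 0 calls and a median of -0.16 with WT replicate 4 not in the fit, the comparison against WT replicates 1 and 2 had 2 calls and a median of -0.10 with Mut replicate 3 not in the fit; Mgat4b was then at -0.92 (limma, adjusted p = 0.0604). None of the 12 genes of smallest p changed direction under the alternatives run within either comparison; the other named genes were not run under them. Depth limits the low genes most, with as few as 10 reads in a library for a tested gene.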
